A study of Mus musculus with 3 samples.

Results

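The miR-23/27/24 miRNAs come from 2 small clusters of hairpins, and 6 of their products were chosen by name out of 568 mouse miRNA names on the array: mmu-miR-23a, mmu-miR-23b, mmu-miR-27a, mmu-miR-27b, mmu-miR-24 and mmu-miR-24-2*, written below without the mouse prefix. Each had 1 probe. They were read in dendritic cells raised from mouse bone marrow (BMDCs), which take up antigen and present it to T cells, on 3 arrays with 1 array for each group. The ID8 group was BMDCs sharing a plate with the ovarian tumour line ID8 (1D8 in the series text and the deposited table), and the CT-26 group was BMDCs sharing one with the colon carcinoma line CT-26, both of mouse origin. Both were co-cultures in transwell plates for 24 h in medium with 3% serum, so a porous membrane lay between the cell types. The control group was BMDCs for which the labels name no tumour cells, and its medium, plates and time in culture are not given in the sources used here. No genotype, strain or age is given for any group. The question was how miRNA levels in BMDCs differ when tumour cells are nearby.

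A miRNA hairpin is cut into a duplex with 2 arms. One arm is usually kept in the silencing complex, and the other, marked with a star in the names of these arrays, is usually degraded. In each of the clusters the hairpins are made from a shared primary transcript and then processed separately, so their products need not be equally abundant. The transcription factor PU.1 drives the miR-23a cluster in blood progenitors, where the cluster favours myeloid over lymphoid fates. miR-27 is known to target PPARG and IL10, miR-24 restrains cell cycle genes, and miR-23b has been linked to tolerance in dendritic cells.

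In RefSeq on GRCm38.p6, Mir23a, Mir27a and Mir24-2 lie on the plus strand of chromosome 8, each within 1000 bp of the next. Mir23b, Mir27b and Mir24-1 lie on the plus strand of chromosome 13 in the same order and within the same distance, inside the protein-coding gene Aopep. The arrays' own build is not named, so the assembly is used here for names, strand and neighbours. The mature sequences below are RefSeq's, printed because the results turn on which arm and which copy a probe is named for, with the seed (bases 2 to 8, which pair with target mRNAs) in capitals. RefSeq entries were matched for 5 of the 6 members, all but miR-23b, and for the 3 other arms of these hairpins on the array. The capture probes' own sequences were not used here.
miR-23a: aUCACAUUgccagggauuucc
miR-27a: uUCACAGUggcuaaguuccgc
miR-27b: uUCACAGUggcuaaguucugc
miR-24: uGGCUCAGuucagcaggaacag
miR-24-2*: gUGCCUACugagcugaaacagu
miR-24-1*: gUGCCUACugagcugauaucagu
miR-27a*: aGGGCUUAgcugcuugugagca
miR-27b*: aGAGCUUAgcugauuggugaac

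miR-27a and miR-27b share their seed and differ at 1 base, C19U, counted from 1 at the 5′ end of miR-27a. Their probes may therefore share signal. Mature miR-24 has the same sequence in both hairpins, with 0 differences, so its probe cannot tell the Mir24-1 product from the Mir24-2 product. The star arms differ in sequence: miR-24-1* (23 bases) and miR-24-2* (22 bases) share their first 16 bases, seed included, and then part at U17A, counted on miR-24-1*. Whether their probes share signal was not tested. The hairpins are printed with both arms in capitals, the star arm first and miR-24 after it, to show where the star arms diverge while miR-24 does not.
Mir24-2: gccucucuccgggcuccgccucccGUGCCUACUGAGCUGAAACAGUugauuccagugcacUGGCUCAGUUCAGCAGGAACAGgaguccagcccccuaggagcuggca
Mir24-1: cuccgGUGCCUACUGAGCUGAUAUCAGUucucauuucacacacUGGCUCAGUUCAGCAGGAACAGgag

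Values below are background-corrected intensities in array units unless called normalized, which is the authors' division of them by 1 constant per array (325, 398.25 and 335.25 for control, ID8 and CT-26). A probe counted as measured at a corrected intensity of at least 50, a floor reached by 175, 192 and 178 of 579 mouse probes in that order. The brightest of 21 empty spots read 6, 1.75 and 2.25, and of 8 negative probes the brightest read 59, 48.5 and 52. Of 10 probes with viral names (mghv), 6, 6 and 5 reached the floor, the brightest at 3323, 5068.75 and 4403.5. Only 7, 5 and 5 of the 10 read below miR-24-2*. A reading over the floor therefore does not by itself show that the named miRNA was present. With 1 array per group there is no SD and no test, every ratio describes a pair of arrays, the number of arrays limits the precision, and the control array is shared by both co-culture ratios. The local background was also higher on the control array, at 54.75 to 59.75 around the 6 member probes, against 48.25 to 50 on ID8 and 47.5 to 49.75 on CT-26. Its part in the ratios to control was not tested beyond the other background corrections given under the processing results. Of 7 myeloid marker miRNAs, 5, 7 and 7 were at the floor on control, ID8 and CT-26, with a summed normalized intensity of 2.53, 6.67 and 7.06. They were miR-223, miR-142-3p, miR-142-5p, miR-155, miR-146a, miR-21 and miR-22. Normalized, miR-22 read 0.36, 1.77 and 1.70 in that order of arrays, and miR-142-3p 0.94, 1.03 and 0.71. The sum therefore does not measure the share of myeloid cells. None of these markers is particular to dendritic cells, so the labelled cell type was not checked further.

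miR-24-2*, the star arm of Mir24-2, was the only member at the floor on all 3 arrays. It read 323.75 on control, 95.75 on ID8 and 56.5 on CT-26. Normalized, these were 0.996, 0.240 and 0.169. The control array was the high one, both co-culture arrays were low, and the CT-26 reading lay just above the floor. miR-24-2* was 4.14-fold lower in the ID8 co-culture and 5.91-fold lower in the CT-26 co-culture, with log2 ratios of -2.05 and -2.56. In a bulk sample, fewer cells that carry a miRNA and less of it per cell cannot be told apart.

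For ID8 over control, 7.88% of the 165 miRNAs measured on both arrays were at least 2-fold apart in either direction and 3.03% were at least 2-fold lower. miR-24-2* had the lowest log2 ratio of the 165, and the next was miR-433* at -1.64. Bounds stand outside that order, and miR-28*, under the floor on ID8, had a bound of -2.14, below the ratio of miR-24-2*. For CT-26 over control, 20.3% of 158 were at least 2-fold apart and 6.96% were at least 2-fold lower, and among these ratios miR-24-2* was second from the lowest after miR-574-5p. The median log2 ratio over all measured miRNAs was 0.02 for ID8 and 0.01 for CT-26. Between the co-cultures, where 8.57% of 175 were at least 2-fold apart, miR-24-2* was 1.43-fold higher beside ID8 cells (log2 0.51) and did not reach 2-fold.

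miR-24, the arm that pairs with targets and that both the Mir24-2 and Mir24-1 hairpins yield, read 55.75 on control, 58 on ID8 and 46.25 on CT-26. These readings lay within 9 units of the floor on every array, and normalized they were 0.172, 0.146 and 0.138. On control the brightest negative probe, at 59, read higher than miR-24, so its ratios are uncertain. Its log2 ratio for ID8 over control was -0.24, and it was at least 1.15-fold lower in CT-26, where it missed the floor. Both depend on scaling: without normalization the ID8 ratio was 0.06, and with the arrays scaled to the U6-snRNA-2 probe it was -1.50 and the CT-26 bound -1.27, each past 2-fold. With that scaling 71.5% of the 165 miRNAs measured in ID8 and 53.2% of 158 in CT-26 passed 2-fold, with medians of -1.25 and -1.06. Relative to the median of all, the ID8 ratio of miR-24 was -0.26 as reported, -0.26 without normalization and -0.25 with U6 scaling. These shifts are thus those of the whole array.

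miR-24-1*, the star arm of the Mir24-1 hairpin, is no member but is the nearest in sequence to miR-24-2*. It read 821.25, 823 and 707.5 on control, ID8 and CT-26, so it was nearly level across the arrays. The log2 ratios to control were -0.29 and -0.26, and -0.03 for ID8 over CT-26. The ratio of miR-24-2* lay below that of miR-24-1* by 1.76 log2 units in ID8 (a difference of -1.76) and by 2.30 in CT-26 (a difference of -2.30). The star arms that share a seed and their first 16 bases thus read differently across these arrays, and dividing each array by another constant would move both alike.

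**Figure D1:**
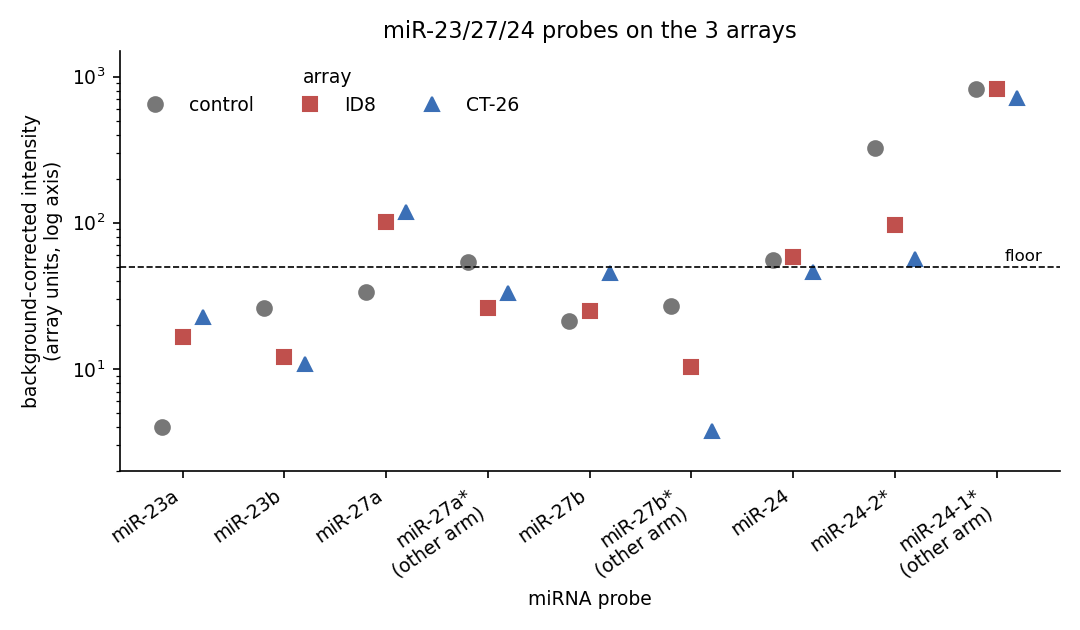
Background-corrected intensity (array units, log axis) of the 6 member probes and the 3 other arms on control (circles), ID8 (squares) and CT-26 (triangles) arrays, 1 array each, with the floor of 50 dashed. miR-24-2* steps down from 323.75 to 95.75 and 56.5, miR-27a stands at 33.75, 100.75 and 118.5, and miR-24-1* stays between 707.5 and 823.

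miR-27a, a member of the myeloid-expressed chromosome 8 cluster, ran the other way. It read 33.75 on control, 100.75 on ID8 and 118.5 on CT-26. The control reading was under the floor, although above all 21 empty spots, and both co-culture readings were over it. On control 7 of the 8 negative probes read lower than miR-27a, and the brightest, at 59, read higher. Set against the lowest level measured on the control array, miR-27a was at least 1.64-fold higher in ID8 (log2 bound 0.71) and at least 2.29-fold higher in CT-26 (log2 bound 1.19). When bounds are counted with ratios, 5.53% of 199 miRNAs were at least 2-fold higher in ID8 and 14.1% of 192 in CT-26. With the arrays scaled to the U6-snRNA-2 probe, which itself had log2 ratios of 1.27 and 1.07, miR-27a had no bound left for ID8 and a bound of 0.12 for CT-26. Between the co-cultures miR-27a was measured on both arrays and was 1.40-fold lower beside ID8 cells (log2 -0.48).

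miR-27b, from the chromosome 13 cluster, stayed under the floor throughout, at 21.25 on control, 25 on ID8 and 45.5 on CT-26. The CT-26 reading was the high one and came close to the floor. Since miR-27b differs from miR-27a by a single base near its 3′ end, part of its reading may come from miR-27a, and this was not tested. At the floor of 50 no ratio was taken for it.

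The miR-23 probes were also under the floor on all 3 arrays, and they leaned opposite ways. miR-23a, which is made from the same transcript as miR-27a, read 4 on control, 16.5 on ID8 and 22.5 on CT-26. Its control reading was within the range of the empty spots, 17 of 21 of which lay below it, and both co-culture readings were above every empty spot. Of the 8 negative probes, 4 read lower than miR-23a on control and 7 on each co-culture array. The brightest read higher there, at 48.5 on ID8 and 52 on CT-26. miR-23b, made from the same transcript as miR-27b, read 26.25, 12 and 10.75 in that order, with control the high array. Readings this dim give no ratio, and 7 of the 8 negative probes read lower than miR-23b on each array, so 1 negative probe read higher.

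Of the 6 members, 1 was at least 2-fold apart from control in ID8 (miR-24-2*, lower), 2 were in CT-26 (miR-24-2*, lower, and miR-27a, higher as a bound), and 0 were between the co-cultures. Over all miRNAs with a ratio or a bound, the share at least 2-fold apart was 9.55%, 22.4% and 8.9% in those pairs of arrays. miR-23a, miR-23b and miR-27b had neither, so the counts to set beside these shares are out of miR-27a, miR-24 and miR-24-2* only. The members' counts are too small to set apart from these shares. Products of the chromosome 8 cluster did not read as a unit: from control to ID8 to CT-26, miR-27a read low, high and high, and miR-24-2* high, low and low. The control reading of miR-27a was under the floor. miR-23a leaned as miR-27a did but was too dim on every array to give a direction. miR-24 is left out here because both clusters yield it. Dividing each array by another constant shifts all of them alike and leaves the differences between them in place. That does not hold for background subtraction, which weighs most on dim readings.

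**Figure D2:**
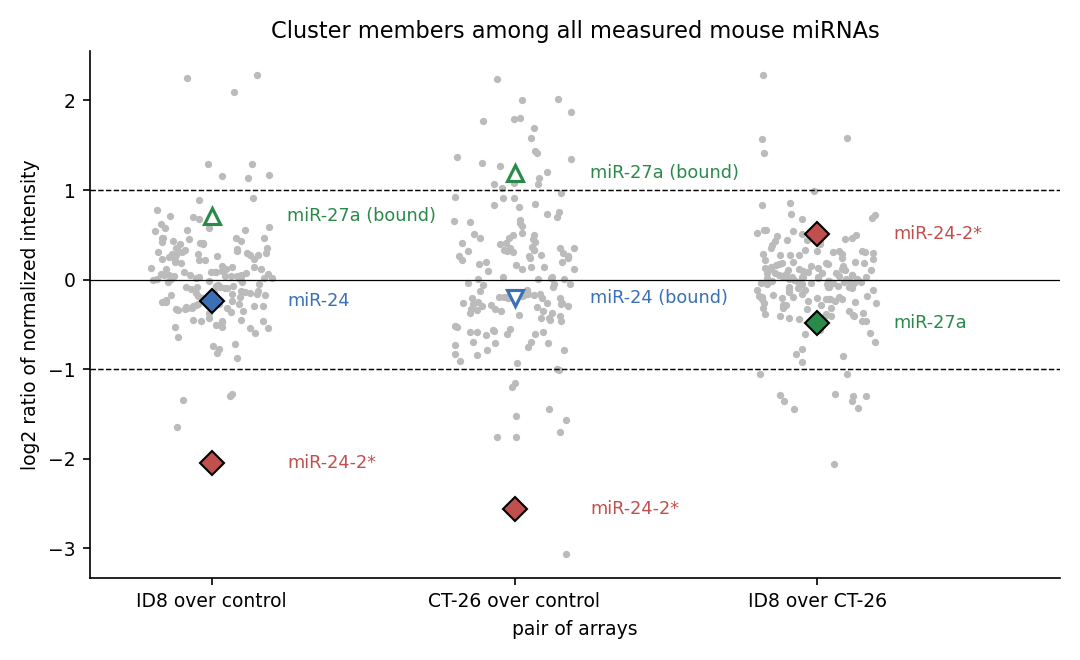
Log2 ratio of normalized intensity for every mouse miRNA measured on both arrays (165, 158 and 175, the members among them) in each pair of arrays, with members as coloured diamonds (ratios) or open triangles (bounds), all others as grey points and dashed lines at 2-fold. miR-24-2* lies at -2.05 and -2.56 against control and at 0.51 between the co-cultures, and miR-27a has bounds of 0.71 and 1.19.

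The other arms of these hairpins were listed as 5 names, of which 3 were on the array. miR-27a*, the star arm of Mir27a, read 54.25 on control, 26.25 on ID8 and 33.25 on CT-26, over the floor on control only. It was at least 1.33-fold lower in ID8 and at least 1.12-fold lower in CT-26. miR-27a and miR-27a* are cut from the same hairpin, and their readings were ordered oppositely between control and the co-cultures. On control both read below the brightest negative probe, at 59, so this order is uncertain. miR-27b* was under the floor throughout, at 27 on control, 10.25 on ID8 and 3.75 on CT-26. Thus miR-24-2*, miR-27a* and miR-27b* read highest on control. miR-24-1*, described above, read 821.25 there and 823 on ID8. Normalized, it was also highest on control, at 2.53 against 2.07 on ID8 and 2.11 on CT-26. Among all 115 names with a star, 34 were measured in the ID8 comparison, with a median log2 ratio of -0.08 against 0.02 over all 165 miRNAs, 2 at least 2-fold lower and 0 at least 2-fold higher, where all 165 had 5 and 8. For CT-26 the star names had a median of -0.21 over 33 against 0.01 over all 158, with 3 at least 2-fold lower and 1 at least 2-fold higher, where all 158 had 11 and 21. Star names had 20 ratios below 0 of 34 for ID8 and 22 of 33 for CT-26, and all miRNAs 76 of 165 and 77 of 158. All miRNAs here include the star names, and miR-24-2* is among the star names at least 2-fold lower in both comparisons. The differences between star names and all miRNAs were not tested.

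The patterns most like that of miR-24-2* were found by Euclidean distance between log2 normalized intensities, each centred on its own mean over the 3 arrays, against 158 other mouse probes measured on all 3. The nearest were miR-433* (distance 0.57), miR-138 (0.64) and miR-693-5p (1.14), while the median distance was 1.95. miR-433*, a star arm of a hairpin in the Dlk1-Dio3 region, read 297.25 on control, 116.75 on ID8 and 90.75 on CT-26. miR-138, best known from neurons, read 320.25, 159 and 97.75 on its measured probe. miR-693-5p read 25610.75, 17035.25 and 13111.5, a shallower step. All of them were highest on control and lowest on CT-26, as miR-24-2* was. They were picked for likeness to it, so the shared order is no separate result. With 3 arrays such a likeness rests on 3 values per probe.

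**Figure D3:**
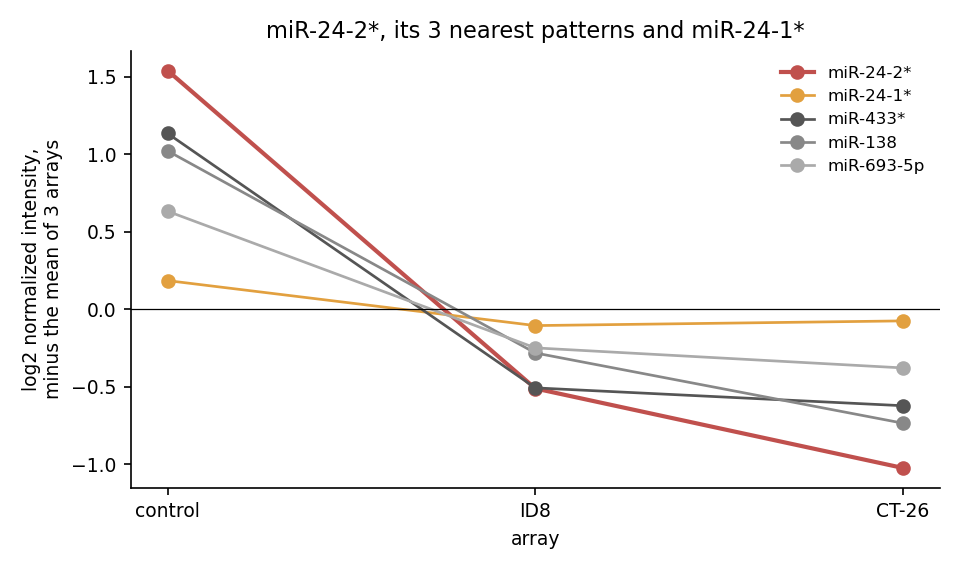
Log2 normalized intensity on each array, minus the mean of the 3 arrays, for miR-24-2*, its 3 nearest patterns and miR-24-1*; lines join the values of 1 probe. miR-433* and miR-138 lie nearest to miR-24-2* (distances 0.57 and 0.64), and miR-24-1*, with log2 ratios of -0.29 and -0.26 to control, stays near 0.

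The miRNAs listed as responsive to PU.1 place miR-27a beside others reported downstream of that factor. The list had 9 names, 8 of them on the array, and for miR-322 the link was made with its human counterpart miR-424. In ID8 over control 3 were measured, namely miR-146a, an NF-kB-induced brake on Toll-like receptor signalling, at a log2 ratio of 2.26, miR-342-5p at 0.30 and miR-322 at -0.09. In CT-26 their ratios were 1.87, 0.27 and -0.52. miR-155, which is induced in activated dendritic cells, had log2 bounds of 2.07 and 1.96 over control, and miR-223, a granulocyte and macrophage miRNA, of 0.99 and 1.28. miR-338-5p ran the other way, with bounds of -0.89 and -0.64. miR-342-3p and miR-338-3p were under the floor on all 3 arrays. miR-27a, at 0.71 and 1.19, thus read in the same direction as miR-155 and miR-223, all of them bounds against a control reading under the floor. miR-128, whose seed overlaps that of miR-27 by a shift of 1 base, read at most 8.75 on any array.

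Most markers of other cells were under the floor, but so were most mouse probes. Of all 579, 30.2%, 33.2% and 30.7% reached it on control, ID8 and CT-26. The marker counts therefore do not show that such cells were absent. Of 9 epithelial markers 7 were under the floor on all 3 arrays, miR-200a, miR-429 and miR-205 among them at 1.75 or less, and the summed normalized intensity of the list was 0.73 on control, 0.59 on ID8 and 0.95 on CT-26. The others were miR-200b, at 143.5, 141.5 and 97.25, and miR-194, at 51.75, 53.25 and 187. Of 3 lymphoid markers 1 reached the floor on 1 array (miR-150, 64.25 on ID8), and the list summed to 0.24, 0.23 and 0.20. Among 3 erythroid and megakaryocyte markers, miR-486 read 98.5, 31 and 20, high on control as miR-24-2* was, and miR-451 read 33.25, 70 and 59.5. The list summed to 0.43, 0.30 and 0.28. The part of these cells in the readings of miR-24-2* and miR-27a was not tested.

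How far the main ratios move with processing differs between the members. miR-24-2* stayed below control under every scaling, background correction and floor tried, from -3.32 to -0.98 in ID8 and from -3.63 to -0.73 in CT-26, the smallest sizes being bounds at a floor of 200. On raw intensity its ratios were -1.63 in ID8 and -1.88 in CT-26, and with normexp background correction -1.59 and -1.81. miR-27a depended on the floor, the background and the scaling. In CT-26 it went from a ratio of 1.77 with a floor of 25 to a bound of 0.17 with a floor of 100. With U6 scaling it had a bound of 0.12 in CT-26 and none in ID8.

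**Figure D4:**
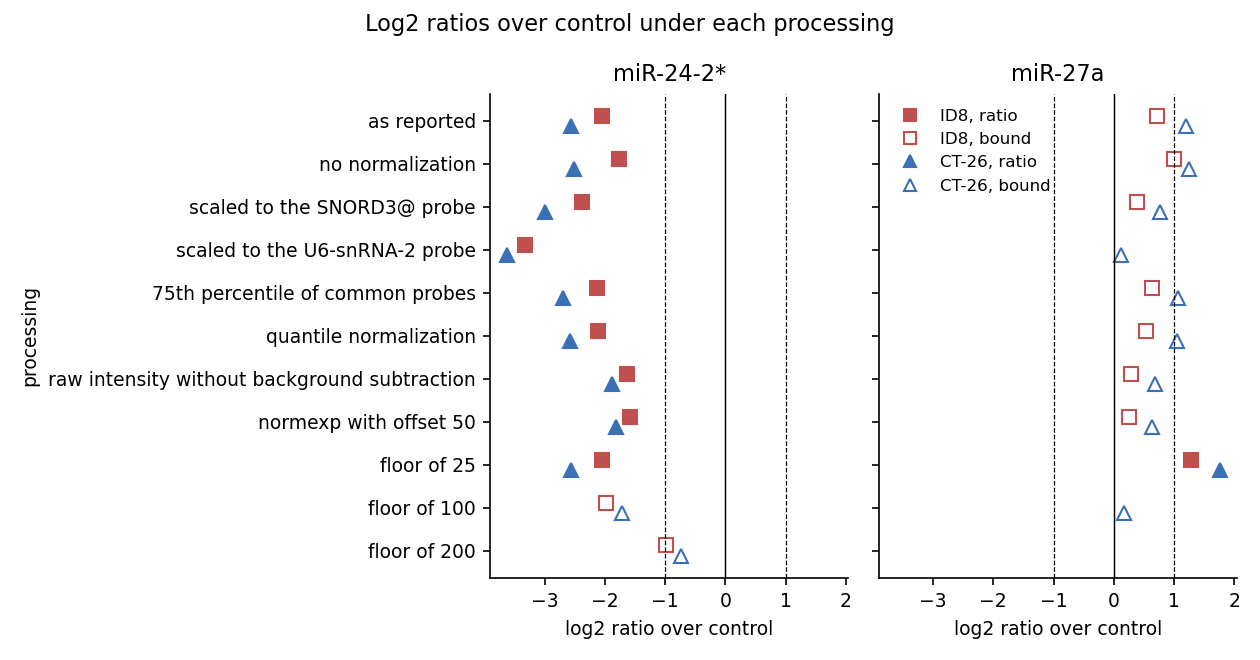
Log2 ratios over control for miR-24-2* (left) and miR-27a (right) under each processing, for ID8 (squares) and CT-26 (triangles); filled symbols are ratios, open symbols bounds, and dashed lines mark 2-fold. miR-24-2* lies below 0 at every setting, from -3.63 to -0.73, and miR-27a ranges from 0.12 to 1.77 where it has a value.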

How the data were processed

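Total RNA was labelled with Hy3 and hybridised to miRNA capture arrays, then scanned with a GenePix 4000B and GenePix Pro 6, per the labels and the series text. Raw, background-corrected and normalized intensity of 1408 probes were deposited, per the file headers. The series matrix repeats the normalized intensity with a largest difference of 0, so its scale is linear; the constant of each array equals the corrected median over mouse probes that reached 50 on every array, as worked out from the values. The columns spelled 1D8, as in the series text, were taken as the sample whose labels spell it ID8.

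Ratios used the deposited normalized intensity on log2. A probe at 50 corrected units on both arrays gave a ratio and on 1 array a bound ("at least N-fold") against the lowest normalized intensity at the floor on the dim array (0.155, 0.126 and 0.149 for control, ID8 and CT-26). Calls were made at 2-fold, without p-values, SD or SE. The calculation was tested on simulated data.

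Alternatives were other scalings, background corrections (normexp, limma 3.58.1, R 4.3.3), floors and thresholds. Named miRNAs were the members, 3 nearest patterns per member measured on all arrays, and listed miRNAs (other arms, overlapping seed, PU.1-responsive, cell markers). The members and lists were chosen with earlier results of these data known. Tables were handled with Python 3.11.15 and pandas 2.3.3. Later arm names (3p, 5p) were matched to the older names.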

Additional observations from a re-analysis of the deposited data

How the results depend on the processing

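No paired analysis was possible because each group has 1 array. With no replicates, a log2 value counted as moved beyond 0.386, the SD of ID8 over CT-26 ratios divided by the root of 2. miR-24-2* over control moved to -3.32 in ID8 and -3.63 in CT-26 with U6 scaling, to -2.99 in CT-26 with SNORD3@ scaling, to -1.63 and -1.88 on raw intensity, to -1.59 and -1.81 with normexp, to a bound of -1.72 in CT-26 at a floor of 100, and to bounds of -0.98 and -0.73 at a floor of 200. miR-27a over control moved to bounds of 0.12 (U6) and 0.76 (SNORD3@) in CT-26, to 0.29 in ID8 and 0.68 in CT-26 on raw intensity, to 0.26 and 0.63 with normexp, to 0.17 in CT-26 at a floor of 100, and to ratios of 1.28 and 1.77 at a floor of 25. It had no bound for ID8 with U6 scaling or at a floor of 100, and none against control at a floor of 200. miR-24 over control turned to 0.06 in ID8 without normalization and moved to -1.50 in ID8 and -1.27 in CT-26 with U6 and to -0.63 in CT-26 with SNORD3@. Ratios between the co-cultures kept their sign for miR-24-2* (0.22 to 0.76) and miR-27a (-0.68 to -0.23) wherever both arrays reached the floor.

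The count of members at least 2-fold apart in ID8 went from 1 to 2 without normalization, with U6 scaling, at a floor of 25 and at 1.5-fold, and to 0 at a floor of 200. In CT-26 it went from 2 to 1 with SNORD3@ scaling, on raw intensity, with normexp, at a floor of 100 and at 4-fold, and to 0 at a floor of 200; with U6 it stayed at 2, with miR-24 in place of miR-27a. Between the co-cultures it went from 0 to 1 at a floor of 25, where miR-27b had a ratio of -1.11. The higher floors leave fewer probes measured, and U6 scaling shifts the median of all measured miRNAs to -1.25 in ID8 and -1.06 in CT-26. SNORD3@ scaling shifts it to -0.31 and -0.42, no normalization to 0.32 in ID8 and 0.24 between the co-cultures, and the 75th percentile to -0.13 in CT-26. The cause of the other moves was not tested. Over all miRNAs, the higher and lower calls of 8 and 5 in ID8 became 12 and 4 without normalization, 1 and 117 with U6 and 3 and 10 with SNORD3@, and the 21 and 11 in CT-26 became 1 and 83, 10 and 31, and 17 and 14 (75th percentile). Between the co-cultures 4 and 11 became 7 and 9 without normalization. The calls in both directions together, 13 in ID8, 32 in CT-26 and 15 between the co-cultures, became 25, 46 and 19 at a floor of 25, 7, 19 and 10 at 100, 3, 14 and 9 at 200, 27, 65 and 29 at 1.5-fold and 4, 5 and 2 at 4-fold. Signal over background limits the CT-26 reading of miR-24-2* (56.5) and those of miR-24.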

Other observations

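Other hairpins also gave unequal readings for their arms. Both arms had a probe measured on all 3 arrays for 14 star names paired by name: let-7d*, miR-106b*, miR-138*, miR-17*, miR-200b*, miR-21*, miR-22*, miR-300*, miR-325*, miR-34c*, miR-382*, miR-467e*, miR-503* and miR-881*. miR-24-2* is not among them, since no probe carries its name without the star. miR-24, which both Mir24 hairpins yield, also missed the floor on CT-26, at 46.25. The log2 ratio of the star arm minus that of the other arm ranged from -1.82 to 0.65 for ID8 over control, with a median of -0.13 and 9 of 14 differences below 0. For CT-26 over control it ranged from -1.96 (miR-22*) to 1.06 (miR-138*), with a median of -0.42 and again 9 of 14 below 0. These pairs share the control array. For miR-22* the differences were -1.82 and -1.96, where the abundant arm miR-22 had log2 ratios of 2.29 and 2.24 and the star arm 0.46 and 0.28. For let-7d* they were -1.67 and -1.65, with let-7d at 1.14 and 0.81 and the star arm at -0.53 and -0.84, and 1 of the let-7d probes was under the floor. miR-21* had -1.82 in ID8 and -0.44 in CT-26.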
